A study of Danio rerio with 2 samples.

Results

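Cholesterol is built in animal cells from acetyl-CoA along the mevalonate pathway, which ends at farnesyl diphosphate, and then along the sterol pathway, which runs from squalene through lanosterol to cholesterol. Cells also take cholesterol up from lipoproteins through the LDL receptor. In vertebrates, the transcription factor SREBP2 switches on most genes of both routes when sterols in the endoplasmic reticulum run low, and INSIG proteins hold SREBP2 back when sterols are plentiful. In the zebrafish embryo, yolk lipids are the first source of cholesterol.

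Here, 10 zebrafish genes of synthesis and uptake were read on 2 arrays: hmgcs1, hmgcra, idi1 and fdps of the mevalonate pathway, fdft1, sqlea, lss, cyp51 and dhcr7 of the sterol pathway, and ldlra, an LDL receptor. They were chosen by name, through the gene symbol given for each probe, with older symbols of the same gene accepted. All 10 genes had a probe, 21 probes in all, among 43553 probes for 27197 genes and unnamed targets. The file listed fdft1, sqlea and ldlra under older symbols.

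The arrays held total RNA of zebrafish embryos of the AB line. One was labelled Tg(RE:HSE:EGFP), a line in which a bidirectional heat shock promoter drives the human RUNX1-Evi-1 fusion gene on one side and EGFP on the other, and the other was labelled wild type (WT). Both groups, transgenic and WT alike, received a heat shock of 38 °C (1 hour, given at 16 hpf) and were collected at 72 hpf, although the submitters' design text can also be read as that time after the heat shock. The heat shock promoter is not bound to a cell type, and the F2 transgenic embryos descended from mosaic founders. The study reports EGFP in most but not all F2 offspring after heat shock. Neither the number of embryos behind an array nor a selection of them for EGFP is given in the sources used here. The share of embryos with the transgene behind the array labelled Tg(RE:HSE:EGFP) is therefore not known.

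There was 1 array per group. The study speaks of triplicate measurements, and whether an array stands for several of them is not given, so no difference below has a replicate check, an error or a p-value. Batch and group cannot be told apart.

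Values are the deposited log2 signals, scaled to the same 75th percentile on both arrays, and each difference is the array labelled Tg(RE:HSE:EGFP), below the Tg array, minus the array labelled WT, below the WT array. For hdac4 and the linker histone gene h1fx, the direction in these files was opposite to that in the study's text, and neither the fusion gene nor EGFP has a probe of that name, so the labels could not be checked on the transgene. The study lists a further histone deacetylase gene as raised, which is not compared here. The few other genes compared here, chosen after their values were seen, were split between the direction in the study's text and its opposite. The erythroid regulator gata1a, lower in the study by PCR, read 9.20 on the Tg array and 10.15 on the WT array. Its dimmer probe read 8.14 on the Tg array and 8.43 on the WT array, a smaller difference of -0.29. The study gives DNA replication as lowered. Of its genes, mcm2 and mcm5 had differences of -0.89 and -1.11, but pcna had 0.38. The cell cycle is given as raised, but ccnb1 and cdk1 had -0.495 and -0.15 at their brightest probes. The other ccnb1 probes lay between -0.135 and 0.135 and did not point the same way. The cdk1 difference was smaller than 0.18, the median gap between the 2 brightest probes of a gene. Since mcm2, mcm5, pcna, ccnb1 and cdk1 all stand among the markers of dividing cells below, the split depends on the term each is set against. The labels were kept, and every difference given here would keep its size and turn its sign if the labels were exchanged. Differences are taken between the 2 arrays for the same probe, and levels of different probes are not read as relative amounts of RNA. The summed signals of marker lists add the brightest probes of different genes, so bright probes weigh most in them. In whole embryos, fewer cells of a type and less RNA per cell cannot be told apart.

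A probe was taken as above background when it was brighter than 95% of the 182 probes that target chemosensory receptors (odorant, trace amine and taste), a limit of 6.78 on the Tg array and 6.74 on the WT array. By this limit 56.0% of the probes on the Tg array and 56.7% of those on the WT array were above background, and 15999 genes were above it on at least 1 array. Each gene was read from its brightest probe. Among 5793 genes with more than 1 probe above background on both arrays, the differences of a gene's 2 brightest probes lay 0.18 log2 units apart in the median and 0.75 at the 95th percentile, which describes how far probes of a gene disagree and is no error over embryos.

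Of the 10 genes, 8 were above background, and fdft1 and ldlra were not on either array. Only cyp51 was at least 2-fold lower on the Tg array, and none of the 8 was at least 2-fold higher. Set against this, 3.49% of all 15999 genes above background passed the same threshold downwards and 4.72% upwards, and the count of 1 among the 8 members rests on cyp51 alone. For genes above background on 1 array only, these 2-fold shares and the medians use the bound of the difference. Shares by sign use measured differences, also where 1 signal is below the limit. So do the shares of genes as low or as high as a named gene, which can therefore exceed the 2-fold shares. The median difference of the 8 genes was -0.004, against -0.02 over all genes above background. By sign alone, 4 of the 8 differences lay above 0 and 4 below, beside 47.65% above and 52.29% below over all genes above background. All 4 mevalonate genes had differences above 0, between 0.13 and 0.48, and all 4 sterol genes above background had differences below 0, between -1.50 and -0.135. Those nearest to 0, of fdps and dhcr7, were smaller than the median gap between probes of a gene, and 3 of the 10 probes of the sterol members lay above 0, of which 2 passed the background limit on neither array and 1, of cyp51, on the Tg array only.

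**Figure D1:**
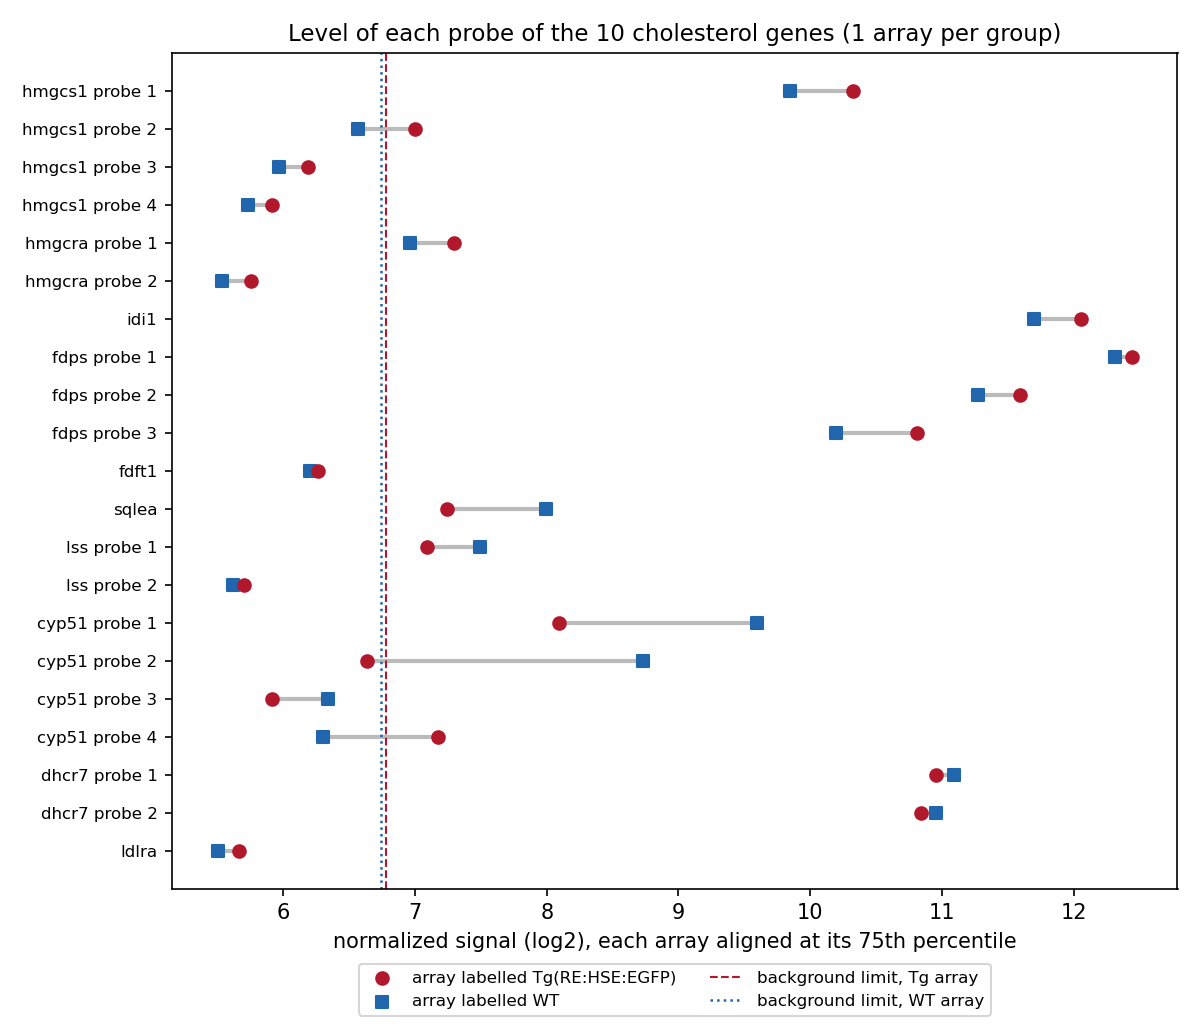
Normalized log2 signal of all 21 probes of the 10 genes, in pathway order from top to bottom, with the Tg array as circles, the WT array as squares and each array's background limit as a vertical line. The circles lie right of the squares at all 10 mevalonate probes, but not all of these passed the background limit. The dimmest hmgcs1 probes, at 6.19 and 5.91 on the Tg array, and the dimmer hmgcra probe, at 5.75 there, passed it on neither array. Another hmgcs1 probe passed it on the Tg array only. The widest gaps are those of the first and second cyp51 probes, where the square lies right of the circle.

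hmgcs1 encodes the cytosolic HMG-CoA synthase, which makes the substrate of the rate-limiting step. Its brightest probe read 10.33 on the Tg array and 9.85 on the WT array, a difference of 0.48 or 1.39-fold. Of the genes above background, 18.0% had a difference as high or higher. A second probe read 7.001 on the Tg array and 6.57 on the WT array, above background on the Tg array only. The remaining probes, at 6.19 and 5.91 on the Tg array against 5.97 and 5.73 on the WT array, were not above background. All 4 probes had differences above 0, each under 2-fold.

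hmgcra encodes HMG-CoA reductase, the rate-limiting enzyme of the pathway and the target of statins. Its readable probe had 7.30 on the Tg array and 6.96 on the WT array, a difference of 0.33. This signal stood close to the background limit. The other probe, which spans 1204 bases of the genome and so is split in the genome, read 5.75 on the Tg array and 5.53 on the WT array and was not above background. A further probe, tied to hmgcra by its transcript accession but listed under another symbol, read 6.19 on the Tg array and 5.97 on the WT array and was also below the limit.

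idi1 encodes isopentenyl diphosphate isomerase, which interconverts the 5-carbon building blocks of isoprenoids. Its single probe was bright on both arrays, at 12.06 on the Tg array and 11.70 on the WT array, a difference of 0.35 that 24.15% of the genes above background matched or passed. fdps encodes farnesyl diphosphate synthase, whose product is the branch point to sterols, ubiquinone and protein prenylation. Its brightest probe read 12.44 on the Tg array and 12.32 on the WT array, a difference of 0.13. The other fdps probes read 11.59 and 10.81 on the Tg array, against 11.28 and 10.20 on the WT array, and differed by 0.32 and 0.62. The direction of fdps was the same at all 3 probes, and the dimmest of them had the largest difference.

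fdft1 encodes squalene synthase, which commits farnesyl diphosphate to sterols. Its only probe, which spans 1974 bases of the genome, read 6.27 on the Tg array and 6.20 on the WT array, and no difference could be read below the background limit. sqlea encodes a squalene epoxidase, the second enzyme of the pathway taken to limit its rate. Its only probe read 7.25 on the Tg array and 7.99 on the WT array, a difference of -0.75 or 1.68-fold lower on the Tg array. A difference as low or lower was found in 8.71% of the genes above background. lss encodes lanosterol synthase, which closes the sterol rings. It read 7.09 on the Tg array and 7.49 on the WT array, a difference of -0.40, while its other probe, at 5.70 on the Tg array and 5.62 on the WT array, was not above background.

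cyp51 encodes lanosterol 14-alpha-demethylase, the cytochrome P450 that follows lanosterol synthase in the pathway. Its brightest probe read 8.10 on the Tg array and 9.60 on the WT array, a difference of -1.50 or 2.84-fold lower on the Tg array. Of the genes above background, 0.99% had a difference as low or lower. A second probe was not above background on the Tg array, at 6.64, and read 8.73 on the WT array, so that it was at least 3.86-fold lower on the Tg array. The measured difference of that probe was -2.09.

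The cyp51 probes did not all point the same way. Both probes that were above background on the WT array were lower on the Tg array. They lie at chr19:505417-505476 and chr19:504541-504600 on the plus strand, in the coordinates of the files, which name no assembly. The other pair lies upstream on that strand. Of these, the probe at chr19:492247-492306 read 5.91 on the Tg array and 6.34 on the WT array, also lower but not above background on either array. The probe at chr19:493154-493213 read 7.17 on the Tg array and 6.30 on the WT array. It was above background on the Tg array only, and there at least 1.35-fold higher. The mean over the 4 cyp51 probes was a difference of -0.79, which is less than 2-fold. Which transcripts each probe binds was not tested.

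dhcr7 encodes 7-dehydrocholesterol reductase, the last enzyme of one branch to cholesterol. Its brighter probe read 10.96 on the Tg array and 11.09 on the WT array, and its other probe read 10.84 on the Tg array and 10.95 on the WT array. The differences, -0.135 and -0.11, were the smallest below 0 among the members and come from probes that share 44 bases, so they are nearly 1 measurement. ldlra, the LDL receptor gene of the set, had 1 probe, which read 5.66 on the Tg array and 5.50 on the WT array. It was not above background, so receptor-mediated uptake was not measured through this gene.

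**Figure D2:**
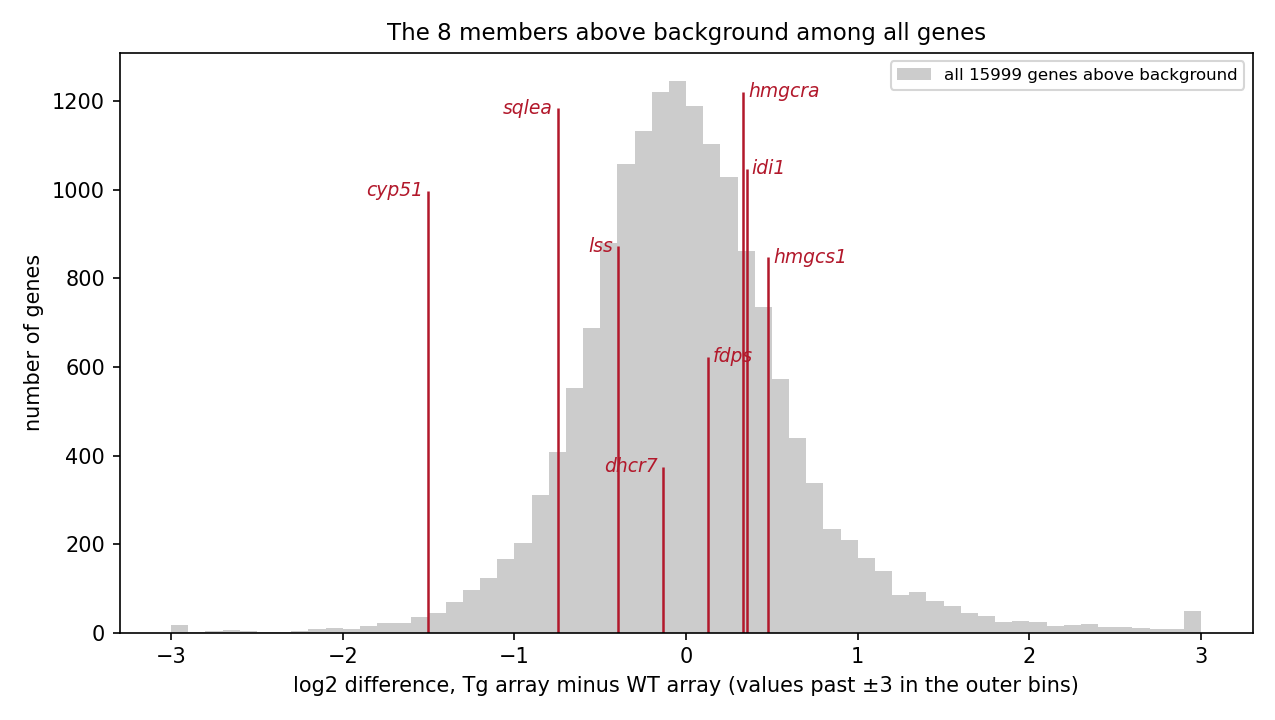
Number of genes by measured log2 difference, Tg array minus WT array, for all 15999 genes above background (bars), with a line at the difference of each of the 8 member genes above background. The line heights only keep the names apart. The line of cyp51, at -1.50, stands in the lower tail, and the others lie between -0.75 and 0.48.

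The other genes of the pathway, 33 with a probe of 43 listed, were counted in the same way. Of these, 27 were above background. The 2 that were at least 2-fold lower on the Tg array were insig1 and nsdhl, none was at least 2-fold higher, and the median difference was 0.04. These genes did not divide by sign between the mevalonate and the sterol pathway as the members did. Among the other mevalonate enzymes, 2 of 5 above background had a difference above 0 and 2 below. Among the other sterol enzymes, 4 of 8 lay above 0 and 4 below. The shares over all genes above background were 47.65% above 0 and 52.29% below.

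**Figure D3:**
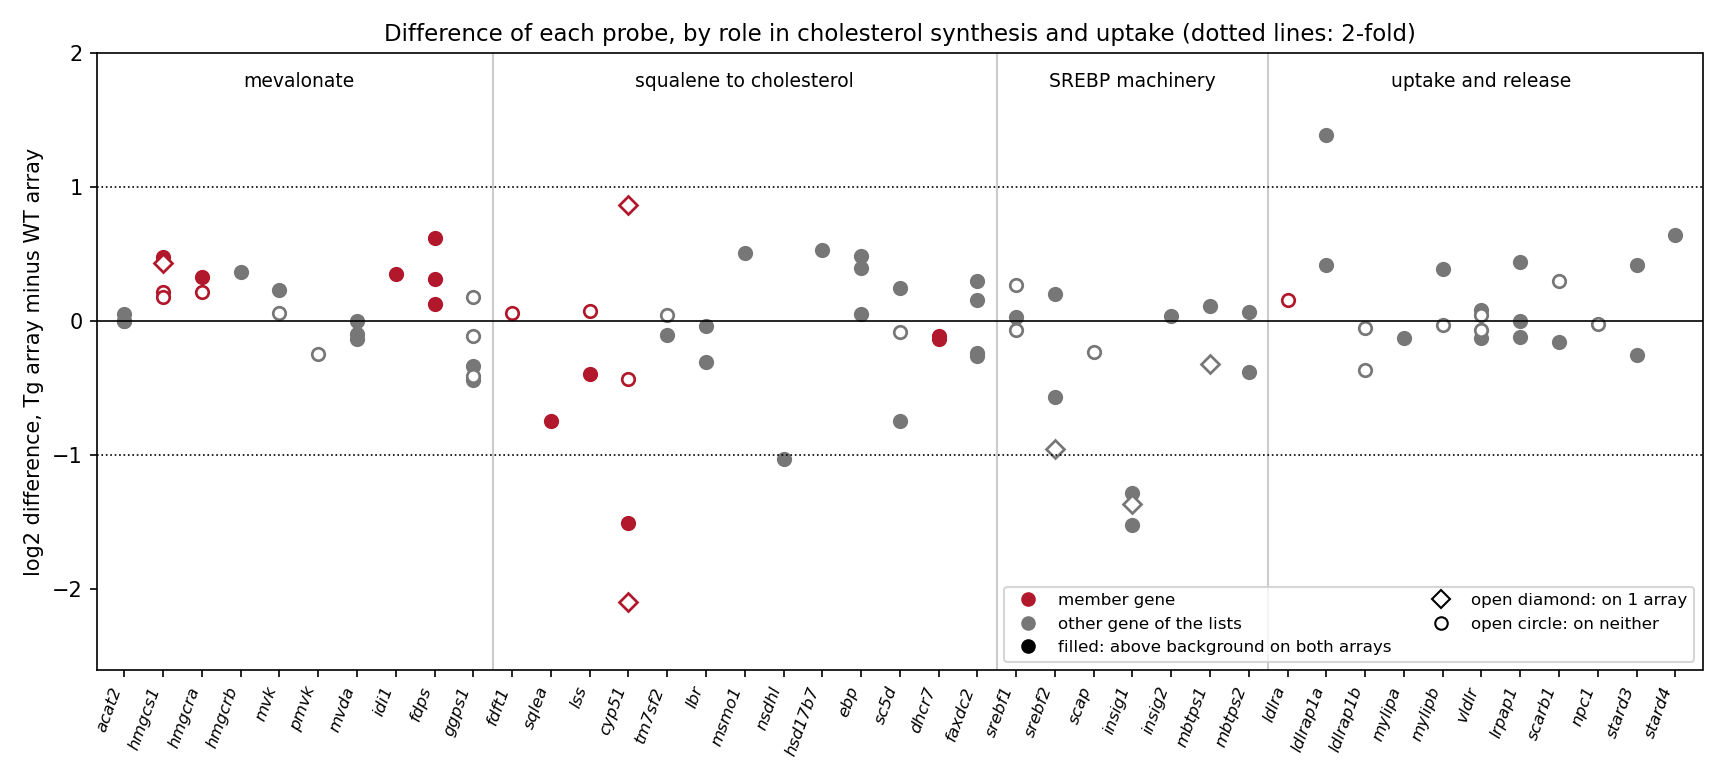
Log2 difference, Tg array minus WT array, of each probe of the 10 genes (red) and of other listed genes of synthesis, regulation and uptake (grey), with filled circles for probes above background on both arrays, open diamonds for probes above it on 1 array and open circles for probes above it on neither. Past the dotted line of a 2-fold lower signal lie 2 probes of cyp51, the probe of nsdhl and the 3 insig1 probes, with 1 cyp51 and 1 insig1 probe below background on the Tg array, and past that of a 2-fold higher signal lies 1 probe of ldlrap1a.

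In the mevalonate pathway, hmgcrb, the second HMG-CoA reductase gene of the zebrafish, read 8.16 on the Tg array and 7.80 on the WT array, a difference of 0.37 beside the 0.33 of hmgcra. acat2, an acetyl-CoA acetyltransferase, had a difference of 0.00. The kinase gene mvk differed by 0.23, and mvda, which encodes mevalonate diphosphate decarboxylase, by -0.10. ggps1, which draws farnesyl diphosphate off to geranylgeranyl diphosphate, read 9.53 on the Tg array and 9.87 on the WT array, a difference of -0.34. pmvk was not above background.

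In the sterol pathway, nsdhl takes part in removing the 4-methyl groups of sterol intermediates after the step of cyp51. Its single probe read 6.85 on the Tg array and 7.87 on the WT array, a difference of -1.03 or 2.04-fold lower on the Tg array, close to the background limit there. The partners of nsdhl in that reaction had differences above 0. msmo1, the methylsterol monooxygenase, read 8.26 on the Tg array and 7.75 on the WT array, and hsd17b7, the keto-reductase, read 8.43 on the Tg array and 7.89 on the WT array. Their differences, 0.51 and 0.53, were under 2-fold. ebp, the sterol isomerase that follows, had 3 probes with differences of 0.40, 0.06 and 0.49.

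sc5d, which encodes the sterol desaturase before dhcr7, was split between probes, with 9.63 on the Tg array and 9.38 on the WT array at the brighter one and 8.58 on the Tg array and 9.32 on the WT array at the next. lbr and tm7sf2, both sterol reductase genes, differed by -0.30 and -0.10. faxdc2 differed by -0.24 and -0.26 at its brighter probes but by 0.16 and 0.30 at its dimmer ones.

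Among the genes that regulate SREBP, insig1 stood apart from the rest. It encodes a sterol-sensing retention protein of the endoplasmic reticulum and is itself a target of SREBP2 in mammals. Its probes read 7.17, 7.20 and 6.07 on the Tg array, against 8.69, 8.48 and 7.44 on the WT array, with the last one not above background on the Tg array. The first and second differed by -1.52 and -1.28, the brightest by 2.87-fold, and the third was at least 1.57-fold lower on the Tg array. As with cyp51, only 0.95% of the genes above background had a difference as low or lower. Its level on the Tg array stood near the background limit, and with the stricter limit at the 99th percentile neither insig1 nor nsdhl was counted as 2-fold lower. The related insig2 differed by 0.04.

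srebf2 is the gene of SREBP2. Its brightest probe read 16.24 on the Tg array and 16.04 on the WT array, a difference of 0.20, while the second read 9.54 on the Tg array and 10.10 on the WT array, a difference of -0.57. The third read 7.58 on the WT array and, at 6.63, was not above background on the Tg array, where it was at least 1.74-fold lower. The probes of srebf2 thus did not point the same way. srebf1, whose product mainly drives fatty acid synthesis, differed by 0.03. The protease genes mbtps1 and mbtps2, whose products release the active factor in the Golgi, differed by 0.11 and -0.38. scap, the gene of the escort protein, was not above background.

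In uptake and release, 8 of 11 genes with a probe were above background, and none reached 2-fold at its brightest probe. By sign, 5 lay above 0 and 3 below, beside 47.65% and 52.29% over all genes above background. stard4, a cytosolic sterol carrier, read 10.12 on the Tg array and 9.48 on the WT array, a difference of 0.64. ldlrap1a, the adaptor that brings the LDL receptor into coated pits, read 11.44 on the Tg array and 11.02 on the WT array. Its second probe read 9.70 on the Tg array and 8.31 on the WT array. The differences were 0.42 and 1.39, so both probes were higher on the Tg array and 1 of the 2 by more than 2-fold. lrpap1, a chaperone of LDL receptor family proteins, differed by 0.44 at its brightest probe and by -0.12 and 0.00 at the others.

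mylipb and mylipa, the zebrafish counterparts of the ligase that degrades the LDL receptor, differed by 0.39 and -0.12, scarb1, a receptor for high-density lipoprotein, by -0.15, and vldlr by 0.09. stard3 differed by -0.25 at its brightest probe but by 0.42 at its other. The second probe of vldlr differed by -0.13. The npc1 and ldlrap1b probes were not above background, and no probe was matched to ldlrb, lrp1aa, lrp1ab, npc2, npc1l1 or lipa, which are not analysed here.

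Genes that carry cholesterol out of the cell or turn it over were counted beside them. Of 15 with a probe, 10 were above background, with a median difference of 0.02. Beside shares of 4.72% and 3.49% over all genes above background, 1 was at least 2-fold higher and 1 at least 2-fold lower. abca1a, the exporter that loads cholesterol on apolipoprotein A-I and that liver X receptors switch on in mammals, was the higher one. It read 10.73 on the Tg array and 9.66 on the WT array, a difference of 1.07 or 2.09-fold. By measured difference, 5.06% of the genes above background matched or passed it. Its other 4 probes were also higher on the Tg array, by 0.79, 0.50, 0.11 and 0.66, so that the mean over its probes, 0.62, and the probe nearest their median, 0.66, were under 2-fold. The second copy, abca1b, differed by -0.12.

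cyp46a1.1, of the family of brain cholesterol 24-hydroxylases, was the lower one, at 6.93 on the Tg array and 8.21 on the WT array, a difference of -1.27. Another of its probes, almost equally bright over both arrays, read 7.64 on the Tg array and 7.503 on the WT array. Its probes thus did not point the same way, and the 2-fold count rests on which of them is used. A further probe, at 5.88 on the Tg array and 6.16 on the WT array, was not above background. The mean over all 3 probes was -0.47. ch25h, which encodes cholesterol 25-hydroxylase, was above background at 1 of 3 probes and on the Tg array only, at 7.38 there and 5.79 on the WT array, or at least 1.56-fold higher. abcg4b, an exporter of the ABCG family, differed by -0.41. nr1h3, the gene of the zebrafish liver X receptor, differed by 0.11 and cyp7a1, the first enzyme of the classic bile acid route, by 0.14. Dimmer nr1h3 probes above background on both arrays differed by -0.17 and 0.24.

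Markers of tissues and of dividing cells were read on the same arrays. Their 2-fold counts stand beside 4.72% higher and 3.49% lower over all genes above background. Whole-embryo RNA was borne out by globin, keratin, muscle and lens crystallin genes, all of them above background. The study's results speak of differences in blood cells, while its methods describe RNA of embryos. Of the liver markers, 9 of 11 were above background, fga and fgg were at least 2-fold higher on the Tg array, and the median difference was 0.70. The summed signal of the liver list was 17.9 on the Tg array and 18.1 on the WT array on the log2 scale. It came mostly from tfa and serpina1, which differed by -0.58 and -0.05 at their brightest probes. The other tfa probes lay between -0.64 and 0.36 and did not point the same way. hpxa and ttr were not above background, and fabp10a only on the Tg array. Of the markers of dividing cells, all 6 with a probe were above background, top2a and mcm5 were at least 2-fold lower on the Tg array, the median difference was -0.69 and the summed signal was 16.1 on the Tg array and 16.9 on the WT array.

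Lens markers were at least 2-fold higher on the Tg array in 4 of 6 genes (crygm2d3, cryaa, bfsp2 and mipb), with a median of 1.495 and sums of 18.6 on the Tg array and 16.6 on the WT array. Skeletal muscle markers were so in 3 of 7 (myhz2, myhz1.1 and tnnt3a), with a median of 0.70 and sums of 19.5 on the Tg array and 19.0 on the WT array. The lens sums came mostly from crygm2d3, which read 18.5 on the Tg array and 16.2 on the WT array. At least 2-fold lower on the Tg array were krt5, 1 of 6 skin markers, mpz, 1 of 6 of glia, and cyp17a1, 1 of 3 of the interrenal gland above background. The interrenal markers did not point the same way. star was above background on the Tg array only and there at least 1.18-fold higher. nr5a1a differed by 0.00 at its brightest probe, while a dimmer probe, above background on the Tg array only, was at least 3.26-fold higher there. In skin, krt4 differed by -0.07 at its brightest probe but between -1.24 and -0.72 at its others. cyt1 had 0.07 at its brightest probe and -0.29 and -0.74 at its others. agr1 and krt91 each had a dimmer probe past 2-fold, at -1.96 and -1.06. The medians, taken from brightest probes, were -0.22 in skin, -0.31 in glia and 0.00 in the interrenal list. Their sums were 19.2, 13.7 and 11.8 on the Tg array and 19.5, 13.9 and 12.0 on the WT array. No marker of neurons, erythrocytes or intestine reached 2-fold, with medians of 0.36, -0.06 and -0.40 over 6, 7 and 2 genes. The erythrocyte median is the value of a globin gene, and the globin genes differed between -0.06 and 0.02. By contrast, gata1a, slc4a1a and alas2 had -0.95, -0.72 and -0.53 at their brightest probes. The dimmer probes of gata1a and slc4a1a had -0.29 and 0.04, and those of alas2 lay between -0.76 and -0.33. The part of these tissues in the values of cyp51, insig1 and the other genes was not tested.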

How the data were processed

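Total RNA of heat-shocked Tg(RE:HSE:EGFP) and WT embryos was labelled with Cy3 and hybridised by the authors to 1-colour Agilent zebrafish arrays, 1 per group. Images were read with Agilent Feature Extraction, per the submitters' processing notes. The deposited values are, per the file headers, log2 signals already normalized by the authors, 1 per probe, with the method of normalization not given in the sources used here. A series-wide table held identical values (no tolerance, both arrays) at all 43553 probes.

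Arrays were aligned at their 75th percentile, a shift of -0.001 in every difference. Probes were named through transcript accession (26621), current symbol (2682), older symbol (1695) or the symbol of the file (4442), against RefSeq's GRCz12tu gene table, and 8113 stayed unnamed. The probe with the highest mean over both arrays stood for its gene. The background limit of an array was the 95th percentile of its chemosensory receptor probes. A gene above background on 1 array only got a lower bound of its fold, which the 2-fold counts and the medians use. With 1 array per group no test was run, and genes were counted at a 2-fold threshold. The number of arrays limits the precision. Named were all members, up to 4 genes per pathway list with the largest differences and every gene of those lists at least 2-fold different. Other listed genes and markers that the text gives were chosen after their values were seen. The members and lists were chosen with earlier results of these data known. Counting was checked on simulated data. Python 3.11.15, numpy 2.4.6, pandas 2.3.3 and matplotlib 3.10.9 were used. Alternatives covered scaling, filter, choice of probe, threshold and the table of values. Some listed genes are counted in their lists and not reported here by name. Sequences of probes, promoters and proteins were not used here.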

Additional observations from a re-analysis of the deposited data

How the results depend on the processing

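No difference has a replicate check, so the alternatives show only what the processing does. The count of members at least 2-fold lower on the Tg array, 1 in the report, was 0 with the mean over a gene's probes, where cyp51 had -0.79, 0 at a 4-fold threshold and 2 at a 1.5-fold threshold, where sqlea joined cyp51. The median of the members, -0.004 in the report, was 0.13 with a stricter background limit, the 99th percentile of the chemosensory probes, which left 5 genes, and 0.10 with the mean over probes, which left 6. Of the other sterol pathway genes, the count at least 2-fold lower, 2 in the report, was 0 with the 99th-percentile limit, 1 where the probe closest to its gene's median difference was used and 0 at 4-fold. The count at least 2-fold higher, 0 in the report, was 1 at 1.5-fold, which was stard4. The other 59 values of these counts and medians under an alternative stayed within the spread set for them (0.1 log2 units, or 1.5 times a count), although the median of the members lay on either side of 0. No member and no listed gene or marker past 2-fold turned its direction where an alternative gave it a value. With the mean over probes, abca1a (0.62), cyp46a1.1 (-0.47), top2a (-0.84), mcm5 (-0.79), mpz (-0.71) and cyp17a1 (-0.94) were under 2-fold as well, and srebf2 had -0.44 beside the 0.20 of its brightest probe. Over the alternatives in which a member stayed above background, its difference ranged between -1.50 and -0.79 for cyp51, -0.75 and -0.74 for sqlea, -0.40 and -0.39 for lss, -0.135 and -0.12 for dhcr7, 0.13 and 0.35 for fdps, 0.33 and 0.48 for hmgcs1, 0.33 and 0.34 for hmgcra and 0.35 and 0.36 for idi1. hmgcra and lss dropped below the limit with the mean over probes, and they and sqlea with the 99th-percentile limit. Counting the further hmgcra probe as well, an alternative chosen after seeing the data, changed none of these values. Signals near the limit leave hmgcra, sqlea, lss and nsdhl the least readable. A search of promoters for sterol regulatory motifs was not run, since promoter sequences were not used here. No paired analysis was possible because each group has 1 array.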

Other observations

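Genes that use the products of fdps outside sterol synthesis were mostly above background, with a median difference near that of all genes above background. Of the isoprenoid list, 9 of 10 genes were above background, none reached 2-fold in either direction and the median difference was 0.06. coq2, which attaches the side chain of ubiquinone, read 8.45 on the Tg array and 7.89 on the WT array, a difference of 0.55. Its other probe differed by 0.52 but has the same coordinates, so the probes are nearly 1 measurement. pdss2, whose product helps build that side chain, differed by 0.45, and nus1, a subunit of the enzyme that makes dolichol precursors, by 0.44. fntb, the beta subunit of farnesyltransferase, read 12.86 on the Tg array and 13.26 on the WT array, a difference of -0.40.

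Genes of fatty acid synthesis and activation, which SREBP1 governs in mammals, had 7 of 9 above background, none past 2-fold and a median of -0.16. Of the 7, 5 had a difference below 0, beside 52.29% of all genes above background. me1, which encodes the NADPH-making malic enzyme, differed by 0.52 at its brightest probe, and the elongase genes elovl6 and elovl5 by 0.38 and -0.39. acsl3b, an acyl-CoA synthetase gene, read 7.25 on the Tg array and 7.70 on the WT array, a difference of -0.46. Both desaturase genes scd and scdb were not above background, and no probe was matched to acly, acaca, acacb or fasn.

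Lipoprotein genes of the yolk syncytial layer, through which yolk lipid leaves for the embryo, were all above background in the 11 genes with a probe, with a median difference of 0.00. apoa4a was the only one past 2-fold, at 13.1 on the Tg array and 14.4 on the WT array, a difference of -1.30. Its other probe differed by -1.18. Over all genes above background, 3.49% were at least 2-fold lower. apoea, apoa2 and apoc1 had differences of 0.72, 0.63 and 0.53, and mttp, which encodes the protein that lipidates apolipoprotein B, had -0.13. The summed signal of this list was 20.1 on the Tg array and 20.0 on the WT array on the log2 scale.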
